A study of Mus musculus with 8 samples.

Results

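The genes of the complement and coagulation cascades were followed in livers of ovariectomized (OVX) mice that were given a high fat diet (HFD), alone or with white button mushroom (WBM). A list of 43 genes was used, from which serpins were left out, and 39 of them had a probe set that names that gene alone, among 19938 genes measured in all. A gene with several such probe sets was read from the brightest of them, by the mean of its log2 values. C3, Cfd, Cpb2 and Klkb1 were not analysed here because they had no such probe set. By their usual cell of origin, 31 of the 39 genes were taken as hepatocyte-made, 6 as made by macrophages and other myeloid cells (C1qa, C1qb, C1qc, C3ar1, C5ar1 and Cfp), and 2 as endothelial (F8 and Vwf).

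The livers of 4 mice on HFD+WBM and of 4 mice on HFD were each hybridized to 1 array of the type Affymetrix Mouse Gene 1.0 ST. All 8 were female C57B1/6J mice whose ovaries were removed at 7 weeks of age, and both diets began 1 week after the operation and lasted 3 months. OVX is a surgical model of menopause in which some estrogen is still made outside the ovary. Sham-operated mice were not analysed here, so the diets were compared in OVX mice alone.

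Complement is a chain of plasma proteins that marks and lyses targets. It is started by C1q on bound antibody (the classical pathway), by mannose-binding lectins (the lectin pathway) or on surfaces directly (the alternative pathway), and it ends in a pore built from C5b, C6, C7, C8 and C9. Coagulation is a second protease chain, which ends in thrombin cutting fibrinogen to fibrin, and plasmin dissolves the clot. The liver is the main source of most of these proteins: hepatocytes secrete nearly all clotting factors and much of complement, whereas C1q comes mainly from macrophages, which in the liver are the Kupffer cells.

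In mice fed with HFD+WBM, 9 of the 39 genes fell and none rose (limma, p under 0.05 before adjustment). Of all genes tested, 6.9% were lower and 4.85% were higher by the same rule. The 9 were the C1q chains C1qa, C1qb and C1qc, the C3a receptor C3ar1, properdin (Cfp), the C4b-binding protein C4bp, and C6, C8b and C9 of the terminal pathway. All 9 were among the 21 complement genes, and 5 of the 9 were myeloid genes. Of the 18 genes of coagulation and fibrinolysis, 0 passed in either direction, and the shares over all genes would mark few of 18. The falls were between 1.28-fold and 1.8-fold, with p between 0.0018 and 0.037. After Benjamini-Hochberg adjustment over all 19938 genes, the 9 had adjusted p between 0.363 and 0.406 (limma), and no gene on the array was under 0.05, although 2341 had an unadjusted p under 0.05. None of the 39 passed the cutoffs of p under 0.05 and a 2-fold change together, which 0.762% of all genes did.

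The median log2 fold change (HFD+WBM minus HFD) was -0.22 over the 39 genes, against 0.01 over all genes tested. Estimates were below 0 for 32 of the 39. The values of all 4 HFD+WBM mice lay below those of all 4 HFD mice for 6 genes, which held for 5.02% of all genes, and above them for 0 genes, which held for 3.21%. Expression values here are the deposited log2 values, in which a difference of 1 is a 2-fold change, and values of different probe sets are not on a common scale, so no gene's level was ranked against another's. Where the mean of a gene list is given relative to that of markers, only the difference of this offset between the diets is read.

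**Figure D1:**
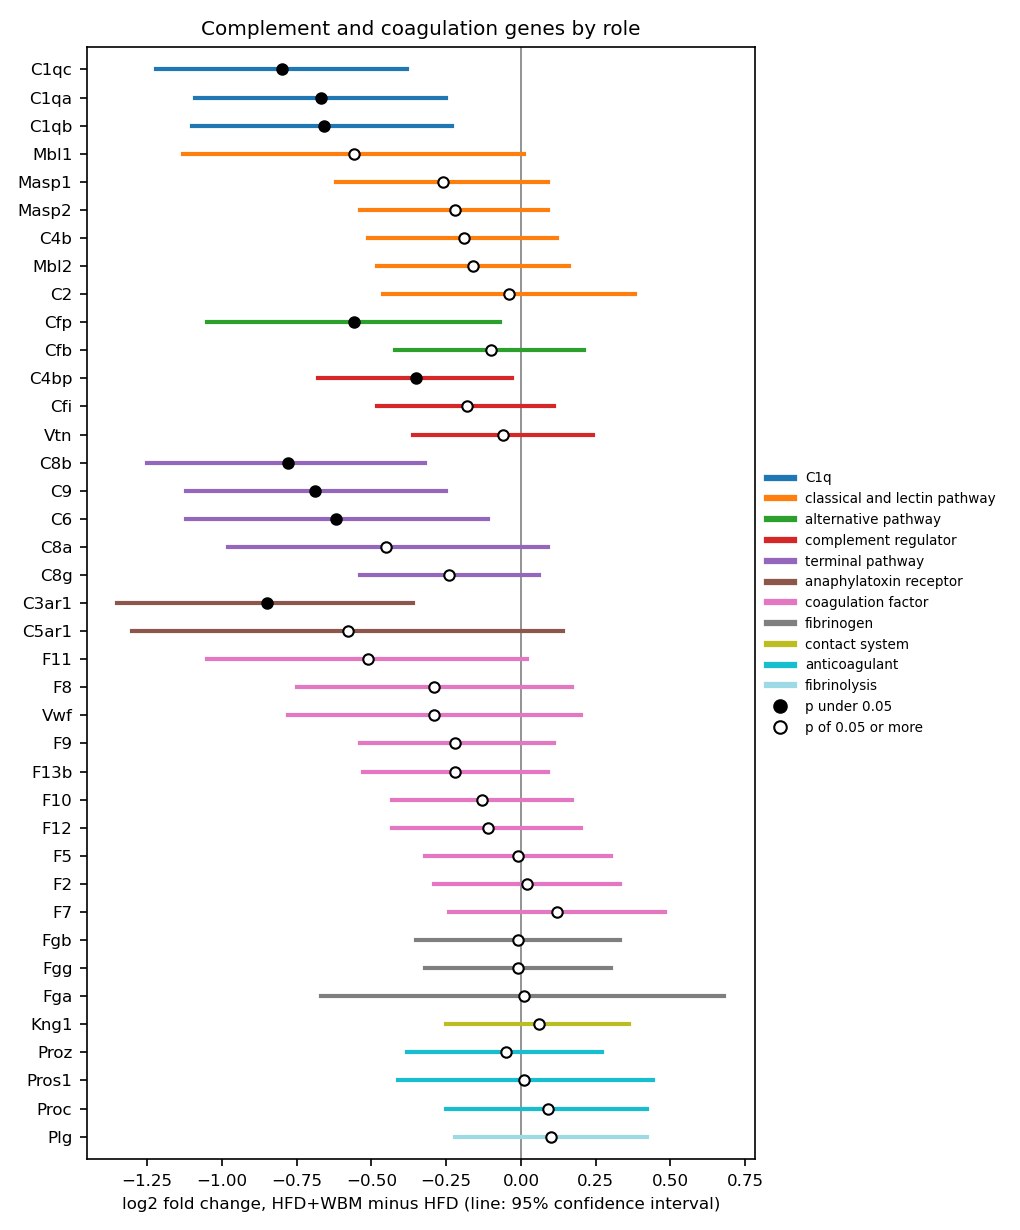
Log2 fold change (HFD+WBM minus HFD, horizontal axis) with its 95% confidence interval (limma) for the 39 genes, grouped and coloured by role; filled points mark p under 0.05 before adjustment. All 9 filled points are complement genes left of 0, and the fibrinogen genes, Kng1, the anticoagulants and Plg lie within 0.10 of 0.

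The arrays had similar overall levels, with medians between 7.04 and 7.22 (log2). Their correlations with each other were between 0.920 and 0.973. HFD replicate 3 stood apart from the others: the SD of its differences from the mean of the other arrays was 0.68, against 0.38 to 0.50 for the other 7. Without that mouse 7 of the 39 genes were lower and 0 higher, and the shares of all genes in that fit are not given here. The labelled tissue was checked with 10 hepatocyte markers such as Alb. They averaged 13.47 ± 0.03 in HFD+WBM mice and 13.42 ± 0.04 in HFD mice (log2, SD, n = 4 each). None of the 10 passed the test, and with 6.9% of all genes lower and 4.85% higher, 0 of 10 is near those shares. Some of them, such as Alb (means 14.16 with HFD+WBM and 14.04 with HFD), lay near the highest values of the arrays, 14.70 to 14.78. Whether a change would show at that level was not tested.

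The promoters of 4 of the genes that fell are shown to set those of the macrophage-made C1q chains beside those of the hepatocyte-made pore proteins. RefSeq promoter windows of 300 bases (GRCm38.p6), from 250 bases before the start site to 50 after it, were matched by symbol for 29 of the 39 genes. Capitals mark the first match to 1 of 4 motifs searched on both strands: GAGGAA (the purine box bound by the myeloid factor PU.1), GTTAAT (a half-site of the hepatocyte factor HNF1), TTGCNNAA (C/EBP) and TTCNNNGAA (STAT). The genes shown were picked among those with a match. C1qa had no window, and the windows of C6 and C3ar1, which also fell, matched none of the 4 motifs. In the members' windows, 1 pair of matches to different motifs overlapped. The windows are written 5′ to 3′ on the strand of the gene: C1qb at chr4:136886151-136886450 on the minus strand, with GAGGAA at position -30 from the start site; C1qc at chr4:136892865-136893164 on the minus strand, with the reverse complement of GAGGAA at -193; C8b at chr4:104766067-104766366 on the plus strand, with the reverse complement of GTTAAT at -206; and C9 at chr15:6445096-6445395 on the plus strand, with a C/EBP-type match at -132.
C1qb: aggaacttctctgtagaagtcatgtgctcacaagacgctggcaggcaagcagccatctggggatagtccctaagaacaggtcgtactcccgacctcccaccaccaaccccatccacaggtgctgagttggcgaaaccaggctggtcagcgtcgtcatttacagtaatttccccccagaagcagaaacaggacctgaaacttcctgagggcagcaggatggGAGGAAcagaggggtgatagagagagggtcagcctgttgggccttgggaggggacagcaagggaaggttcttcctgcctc
C1qc: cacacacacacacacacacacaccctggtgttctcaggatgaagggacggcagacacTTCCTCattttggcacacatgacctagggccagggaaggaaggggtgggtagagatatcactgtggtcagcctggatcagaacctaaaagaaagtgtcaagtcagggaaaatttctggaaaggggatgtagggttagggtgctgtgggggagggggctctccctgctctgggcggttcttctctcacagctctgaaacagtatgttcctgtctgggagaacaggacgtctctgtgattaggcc
C8b: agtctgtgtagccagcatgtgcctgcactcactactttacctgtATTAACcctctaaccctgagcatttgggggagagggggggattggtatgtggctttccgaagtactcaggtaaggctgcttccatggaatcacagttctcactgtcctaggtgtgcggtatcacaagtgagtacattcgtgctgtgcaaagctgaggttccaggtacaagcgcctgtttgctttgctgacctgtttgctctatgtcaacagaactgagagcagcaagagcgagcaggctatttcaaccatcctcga
C9: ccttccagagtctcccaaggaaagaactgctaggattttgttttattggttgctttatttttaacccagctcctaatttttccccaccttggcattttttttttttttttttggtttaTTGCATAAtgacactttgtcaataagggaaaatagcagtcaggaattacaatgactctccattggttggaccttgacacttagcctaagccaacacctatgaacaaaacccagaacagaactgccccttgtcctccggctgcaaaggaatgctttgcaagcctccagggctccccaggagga
GAGGAA was present in 3 of the 5 myeloid windows (C1qb, C1qc and Cfp) and in 2 of the 23 hepatocyte-made windows, against 28.3% of all 32851 RefSeq promoter windows of the same length. GTTAAT was present in 9 of the 23 hepatocyte-made windows (39.1%) and in 1 of the 5 myeloid windows (Cfp), against 7.1% of all windows. The 9 hepatocyte-made windows held genes that fell with HFD+WBM (C8b and C4bp) and genes that did not pass the test (C8a, F2, F13b, Fga, Fgb, Proz and Vtn). TTGCNNAA was found in 5 of the 23 (C9, F9, F11, Fga and Fgb; 10.8% of all windows) and TTCNNNGAA in 7 of the 23 (8.3% of all windows), none of which belonged to a gene that fell. A match is a description of the letters only.

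C1q is a bundle of 3 chains, encoded by C1qa, C1qb and C1qc, which lie next to each other on chromosome 4. All 3 genes were lower in mice fed with HFD+WBM, against 6.9% of all genes. For C1qc, the log2 values were 9.40, 9.80, 9.23 and 9.73 in HFD+WBM mice (replicates 1 to 4) and 10.44, 10.02, 10.57 and 10.33 in HFD mice. Every HFD+WBM mouse was below every HFD mouse. The mean was 9.54 ± 0.27 with HFD+WBM and 10.34 ± 0.24 with HFD (SD, n = 4 each). The log2 fold change was -0.80 (SE 0.19, limma p = 0.0018, adjusted p = 0.363, exact permutation p = 0.029, the smallest that 4 against 4 mice can give).

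The chain C1qa had log2 values of 9.16, 9.52, 9.21 and 9.29 in HFD+WBM mice, against 10.14, 9.49, 10.15 and 10.07 in HFD mice. The diets overlapped through a single mouse, HFD replicate 2, which lay just below the highest HFD+WBM mouse. The log2 fold change was -0.67 (SE 0.19, limma p = 0.0053, adjusted p = 0.368, exact permutation p = 0.057). C1qb showed the same arrangement, with 9.41, 9.87, 9.36 and 9.75 in HFD+WBM mice and 10.38, 9.85, 10.47 and 10.35 in HFD mice. Its log2 fold change was -0.66 (SE 0.19, limma p = 0.0069, adjusted p = 0.368, exact permutation p = 0.057). The 3 genes had a median log2 fold change of -0.67, and without HFD replicate 2 they had -0.83 (C1qa), -0.80 (C1qb) and -0.91 (C1qc).

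The other 3 myeloid genes also had estimates below 0, and 2 of them fell, against 6.9% of all genes. C3ar1, the receptor through which the cleavage product C3a acts on myeloid cells, had log2 values of 6.69, 7.12, 6.66 and 6.99 in HFD+WBM mice and 7.84, 7.13, 8.05 and 7.86 in HFD mice. The groups did not overlap, but HFD replicate 2 lay within 0.01 of the highest HFD+WBM mouse. Its fold change was the largest fall among the 39 genes, at -0.85 on the log2 scale (SE 0.22, limma p = 0.0035, adjusted p = 0.366, exact permutation p = 0.029), and it alone passed the 2-fold cutoff when HFD replicate 2 was left out (2.07-fold lower).

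Cfp encodes properdin, which stabilizes the convertase of the alternative pathway. Its log2 values were 8.73, 9.51, 9.05 and 9.42 in HFD+WBM mice, against 9.91, 9.38, 10.02 and 9.66 in HFD mice. HFD replicate 2 was again the lowest of its diet, below HFD+WBM replicates 2 and 4. The log2 fold change was -0.56 (SE 0.22, limma p = 0.028, adjusted p = 0.399, exact permutation p = 0.086). This call was lost without HFD+WBM replicate 1 (log2 fold change -0.42), HFD+WBM replicate 3 (-0.52), HFD replicate 1 (-0.51) or HFD replicate 3 (-0.47). C5ar1, the C5a receptor, was a dim and scattered gene, with 5.30, 6.23, 6.11 and 5.24 in HFD+WBM mice and 6.34, 5.96, 5.86 and 7.04 in HFD mice, a log2 fold change of -0.58 (SE 0.32, limma adjusted p = 0.490) that did not pass the test. It was between -0.75 and -0.33 when 1 mouse was left out, the smallest without HFD replicate 4, and it was called lower with array weights (-0.78).

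**Figure D2:**
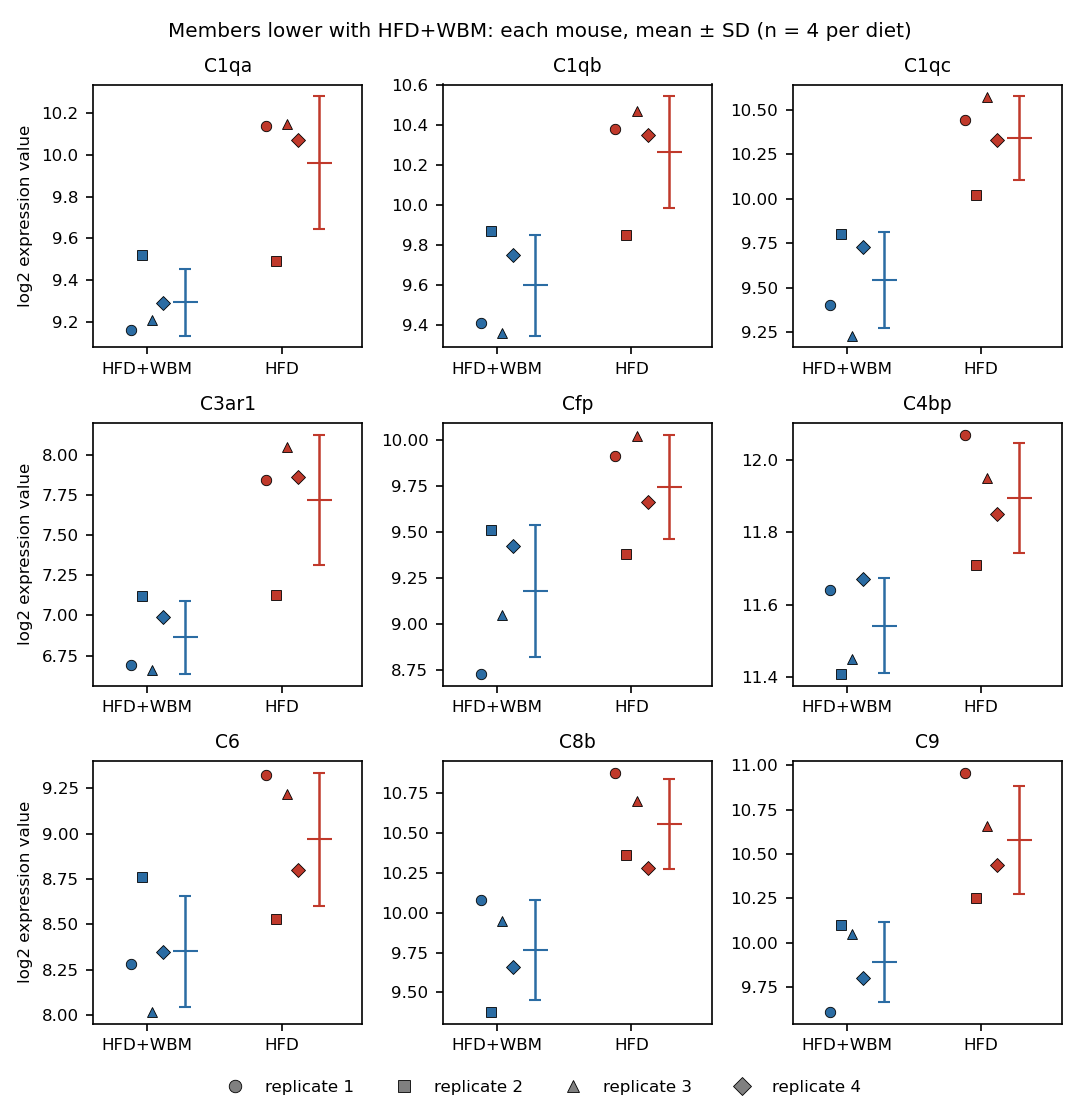
Log2 expression value (vertical axis, its own range in each panel) of the 9 genes that fell, in the 4 HFD+WBM mice (blue, left) and the 4 HFD mice (red, right); symbols give the replicate and bars the mean ± SD. HFD replicate 2 (red square) is the lowest HFD mouse in 8 of the 9 panels, and HFD+WBM replicate 2 (blue square) is the highest of its diet in 7.

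General macrophage markers moved with the C1q genes. The list of 15 Kupffer cell and macrophage markers includes Clec4f, Timd4, Adgre1, Csf1r and Cd68. Of the 15, 12 were lower in HFD+WBM mice and 0 higher (6.9% and 4.85% of all genes), with a median log2 fold change of -0.64. Their mean log2 value was 8.49, 8.85, 8.43 and 8.78 in HFD+WBM mice and 9.50, 8.86, 9.45 and 9.28 in HFD mice, while the mean of the C1q genes was 9.32, 9.73, 9.26 and 9.59 in HFD+WBM mice and 10.32, 9.79, 10.40 and 10.25 in HFD mice. HFD replicate 2 was the lowest HFD mouse and HFD+WBM replicate 2 the highest HFD+WBM mouse in both lists.

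Set against the marker mean within each mouse, the C1q mean was 0.84 ± 0.03 higher in HFD+WBM mice and 0.91 ± 0.07 higher in HFD mice (log2, SD, n = 4 each), a difference between the diets of -0.07. The C1q genes and the macrophage markers differed between diets by similar amounts. In whole liver, fewer cells of a type and less RNA per cell cannot be told apart. The part of these markers in the C3ar1, C5ar1 and Cfp values was not tested. Among markers of other cells that liver can hold, 3 of 6 stellate cell genes and 1 of 5 platelet genes (Pf4) were lower. Of 5 granulocyte and monocyte genes, 1 was lower (Ccr2) and 1 higher (Elane). For lymphocytes 0 of 5 and for adipocytes 0 of 5 genes were lower. Against the shares over all genes (6.9% lower and 4.85% higher), 0 or 1 of 5 is no clear excess.

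**Figure D3:**
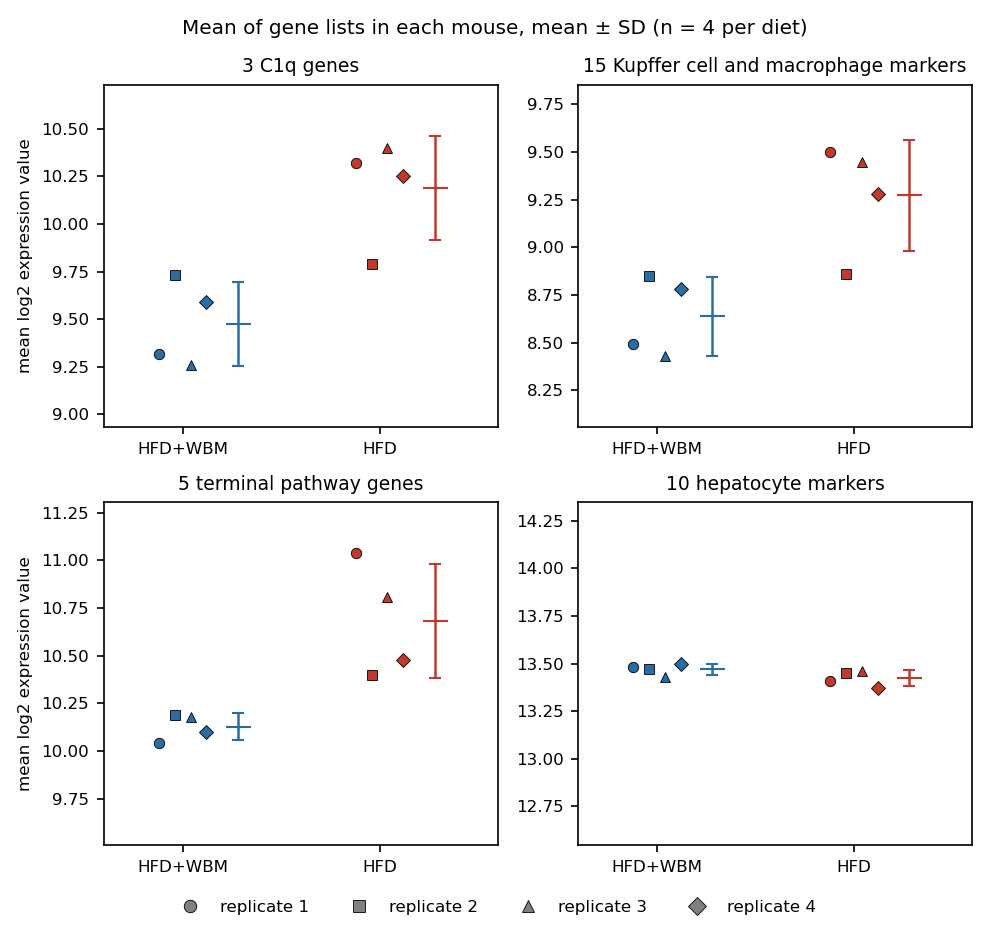
Mean log2 expression value (vertical axis, spanning 1.8 log2 units in each panel) of the 3 C1q genes, 15 Kupffer cell and macrophage markers, 5 terminal pathway genes and 10 hepatocyte markers, in HFD+WBM mice (blue, left) and HFD mice (red, right), with mean ± SD. In the C1q and macrophage panels alike, HFD replicate 2 is the lowest HFD mouse and HFD+WBM replicate 2 the highest HFD+WBM mouse, and the hepatocyte markers lie between 13.37 and 13.50 in all 8 mice.

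The hepatocyte-made genes were read by role. Over all 31, 4 fell (12.9%, against 6.9% of all genes) and none rose (4.85% of all genes), with a median log2 fold change of -0.13. The 4 were complement genes: of 15 hepatocyte-made complement genes, all had an estimate below 0 (median -0.24), while of 16 hepatocyte-made genes of coagulation and fibrinolysis, 9 were below 0 and 7 above (median -0.01). The difference between these medians was not tested. Of the 10 hepatocyte markers, 0 were called lower with HFD+WBM (median log2 fold change 0.01), which is near the share of 6.9%. Some of these markers lay near the top of the arrays' range.

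Among the genes of the terminal pathway, which form the membrane attack complex, 3 of 5 fell, against 6.9% of all genes (median log2 fold change -0.62). C8b, the beta chain of C8, had log2 values of 10.08, 9.38, 9.95 and 9.66 in HFD+WBM mice and 10.88, 10.36, 10.70 and 10.28 in HFD mice. Each HFD+WBM mouse was below each HFD mouse, with a log2 fold change of -0.78 (SE 0.21, limma p = 0.0039, adjusted p = 0.368, exact permutation p = 0.029). C9, which polymerizes to line the pore, had 9.61, 10.10, 10.05 and 9.80 in HFD+WBM mice, against 10.96, 10.25, 10.66 and 10.44 in HFD mice. These groups were also separate, with a log2 fold change of -0.69 (SE 0.20, limma p = 0.0060, adjusted p = 0.368, exact permutation p = 0.029).

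C6, which joins C5b on the membrane, had log2 values of 8.28, 8.76, 8.02 and 8.35 in HFD+WBM mice and 9.32, 8.53, 9.22 and 8.80 in HFD mice. HFD+WBM replicate 2 lay above HFD replicate 2. The log2 fold change was -0.62 (SE 0.23, limma p = 0.022, adjusted p = 0.389, exact permutation p = 0.057), and the call was lost without HFD+WBM replicate 3 (log2 fold change -0.51), HFD replicate 1 (-0.50) or HFD replicate 3 (-0.53).

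C8a, the alpha chain of C8 and the neighbour of C8b on chromosome 4, had 9.70, 10.06, 10.26 and 9.96 in HFD+WBM mice and 11.06, 10.06, 10.49 and 10.15 in HFD mice. HFD replicate 1 was the highest mouse by a wide margin, the groups overlapped, and the log2 fold change of -0.45 (SE 0.24, limma adjusted p = 0.481) did not pass. It was -0.24 without HFD replicate 1, and it passed without HFD replicate 2 (-0.57). For C8g, the lipocalin chain of C8, the values were 12.51, 12.64, 12.64 and 12.72 in HFD+WBM mice and 12.96, 12.79, 12.96 and 12.75 in HFD mice. The groups did not overlap, but the difference was small, at -0.24 on the log2 scale (SE 0.13, limma p = 0.11, exact permutation p = 0.029). Relative to the hepatocyte markers of the same mouse, the mean of the 5 genes was -3.34 ± 0.09 with HFD+WBM and -2.74 ± 0.30 with HFD (log2, SD, n = 4 each). The difference was -0.60, and some of those markers lay near the top of the arrays' range.

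Of the 3 regulators, 1 fell, against 6.9% of all genes, and 1 of so few is no clear excess. C4bp, which holds C4b for cleavage by factor I, had log2 values of 11.64, 11.41, 11.45 and 11.67 in HFD+WBM mice, against 12.07, 11.71, 11.95 and 11.85 in HFD mice. No values overlapped, but the gap was only 0.04 between HFD+WBM replicate 4 and HFD replicate 2. The log2 fold change was -0.35 (SE 0.15, limma p = 0.037, adjusted p = 0.406, exact permutation p = 0.029). It was the least firm of the 9 calls: it was lost without HFD+WBM replicate 2 (log2 fold change -0.31), HFD+WBM replicate 3 (-0.32), HFD replicate 1 (-0.30), HFD replicate 3 (-0.34) or HFD replicate 4 (-0.37). Cfi, the protease factor I, had a log2 fold change of -0.18 (SE 0.13) and Vtn, vitronectin, which binds terminal complexes in plasma, one of -0.06 (SE 0.13), and neither passed.

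None of the 6 genes of the lectin pathway and of the C3 convertase it shares with the classical pathway passed the test. With 6.9% of all genes lower and 4.85% higher, 0 of 6 is near those shares. All 6 estimates were below 0 (median log2 fold change -0.21). The mannose-binding lectin Mbl1 was nearest, with log2 values between 9.03 and 9.51 in HFD+WBM mice and between 9.37 and 10.49 in HFD mice, a log2 fold change of -0.56 (SE 0.25, limma adjusted p = 0.429). The difference rested on HFD replicates 1 and 3, since the other HFD mice, at 9.37 and 9.53, lay below and just above the highest HFD+WBM mouse, and it was -0.34 without HFD replicate 1. It passed without HFD replicate 2 (-0.72) or HFD replicate 4 (-0.66). Its partner Mbl2 had -0.16 (SE 0.14). The lectin pathway proteases Masp1 and Masp2 had log2 fold changes of -0.26 (SE 0.16) and -0.22 (SE 0.14). C4b and C2, which form the C3 convertase of these pathways, had -0.19 (SE 0.14) and -0.04 (SE 0.19). Factor B (Cfb), the neighbour of C2 on chromosome 17 and the protease of the alternative convertase, had -0.10 (SE 0.14), with a 95% confidence interval of -0.42 to 0.21.

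Fibrinogen, the clot protein, is encoded by Fga, Fgb and Fgg side by side on chromosome 3. Fgb had log2 values of 13.23, 13.24, 13.26 and 13.50 in HFD+WBM mice and 13.21, 13.22, 13.59 and 13.25 in HFD mice, with an interval for the log2 fold change of -0.35 to 0.33. Fgg had an interval of -0.32 to 0.30. In both diets 1 mouse stood above the rest for Fgb, and the diets covered the same range. Fga was more scattered, with 9.01, 9.58, 9.57 and 9.75 in HFD+WBM mice and 8.62, 9.67, 10.07 and 9.52 in HFD mice, and with an interval of -0.67 to 0.68 a change of up to that size was not detectable. A second probe set for Fga gave the same picture, with means of 9.37 in both diets.

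Of the 10 clotting factors, 0 passed in either direction, with a median log2 fold change of -0.17, 8 estimates below 0 and 2 above. Over all genes tested 6.9% were lower and 4.85% higher, so 0 of 10 is near those shares. F11, of the intrinsic pathway, came closest, with 9.35, 8.17, 9.12 and 8.91 in HFD+WBM mice and 9.51, 9.36, 9.30 and 9.43 in HFD mice. HFD+WBM replicate 2 lay far below the other mice, and the log2 fold change was -0.51 (SE 0.24, limma adjusted p = 0.434). It was -0.27 without that mouse, and it passed without HFD+WBM replicate 1 (-0.67). The 4 clotting factors that need vitamin K, namely F2 (prothrombin), F7, F9 and F10, had log2 fold changes of 0.02, 0.12, -0.22 and -0.13 with SEs between 0.13 and 0.16, and the anticoagulants Proc, Pros1 and Proz, which need it too, had 0.09, 0.01 and -0.05. F5, the cofactor of factor X, had -0.01 (95% confidence interval -0.32 to 0.30).

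F12, which starts the contact pathway, had -0.11 (SE 0.14), and F13b, the carrier subunit of the fibrin crosslinking enzyme, had -0.22 (SE 0.14). Kng1, the kininogen of the contact system, had 0.06 (SE 0.14), and Plg, the precursor of plasmin, had 0.10 (SE 0.14, 95% confidence interval -0.22 to 0.42). The endothelial genes F8 and Vwf, whose proteins circulate as a complex, each had a log2 fold change of -0.29, with SEs of 0.21 and 0.22. F8 had -0.12 without HFD+WBM replicate 1, and Vwf had -0.16 without HFD replicate 4. Vwf was called lower without HFD replicate 3 (-0.47), whose Vwf value of 6.66 was the lowest of the 8 mice. Beside them, 3 of 10 endothelial markers were lower (Lyve1, Cdh5 and Tek), against 6.9% of all genes, and 0 were higher, against 4.85%. The part of these markers in the F8 and Vwf values was not tested.

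**Figure D4:**
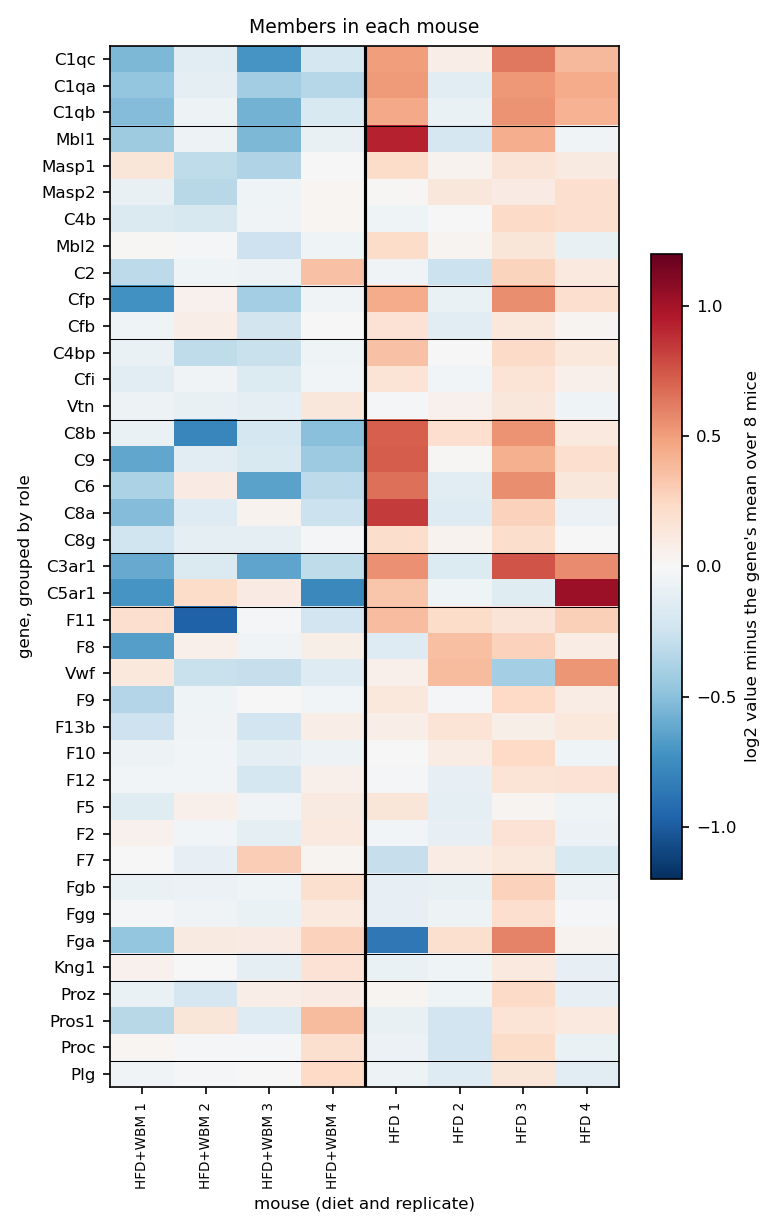
Log2 value minus the gene's mean over the 8 mice (colour; red above and blue below the mean) for the 39 genes, in rows grouped by role, in the 4 HFD+WBM mice (left of the line) and the 4 HFD mice (right). The C1q and terminal pathway rows are mostly blue left of the line and red right of it, with exceptions such as HFD replicate 2 for C1qa, C1qb, C6 and C8a, while the fibrinogen rows show no such split.

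HFD replicate 2 was the lowest of its diet for 21 of the 39 genes, and HFD replicate 3, the array that stood apart, was the highest for 20. HFD+WBM replicate 4 was the highest of its diet for 20 genes. The last of these lay mostly outside the genes that fell, as HFD+WBM replicate 4 was the highest of its diet for 1 of the 9.

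Other genes of the same cascades were read from a further list of 46, of which 42 were measured. Among the 42, 6 fell (14.3%, against 6.9% of all genes) and none rose (4.85% of all genes). The estimates of 36 were below 0 (median log2 fold change -0.19). Tissue factor (F3), which starts clotting at a wound, had dim log2 values of 5.75, 5.06, 5.16 and 5.01 in HFD+WBM mice, against 6.65, 5.90, 6.11 and 6.18 in HFD mice. All HFD+WBM values were below all HFD values, with a log2 fold change of -0.96 (SE 0.22, limma p = 0.0016, adjusted p = 0.363, exact permutation p = 0.029). Vsig4, the complement receptor of Kupffer cells and also 1 of the 15 macrophage markers, had -0.64 (SE 0.19, limma adjusted p = 0.368, exact permutation p = 0.029), and the urokinase gene Plau had -0.89 (SE 0.33, limma adjusted p = 0.389, exact permutation p = 0.11). With an offset of 64 added before the log, F3 had -0.44 and Plau -0.43.

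Lman1 and Mcfd2 encode the cargo receptor that carries factors V and VIII out of the endoplasmic reticulum. Lman1 had log2 values of 11.17, 10.93, 10.91 and 10.99 in HFD+WBM mice and 11.39, 11.43, 11.42 and 11.31 in HFD mice, without overlap (log2 fold change -0.39, SE 0.13, limma adjusted p = 0.379, exact permutation p = 0.029). Mcfd2 had 10.62, 10.43, 10.48 and 10.57 in HFD+WBM mice and 10.86, 10.82, 10.73 and 10.93 in HFD mice, also without overlap (-0.31, SE 0.13, limma adjusted p = 0.409, exact permutation p = 0.029). The sixth gene, Habp2, a plasma protease that can activate factor VII, had -0.35 (SE 0.14, limma adjusted p = 0.399, exact permutation p = 0.029). Of these 6, F3, Vsig4 and Lman1 passed in each of the 8 fits that left out 1 mouse. Plau was lost without HFD+WBM replicate 3 (log2 fold change -0.67), HFD replicate 3 (-0.66) or HFD replicate 4 (-0.83). Habp2 was lost without HFD+WBM replicate 2 (-0.35), HFD+WBM replicate 3 (-0.29), HFD replicate 2 (-0.34) or HFD replicate 4 (-0.36). Mcfd2 was called in 2 of the 8, being lost without HFD+WBM replicates 2, 3 or 4 (-0.28, -0.30 and -0.33) and without HFD replicates 1, 2 or 4 (-0.30, -0.32 and -0.28).

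The partners of the C1q and terminal pathway genes on that list did not pass. The C1q-bound proteases had log2 fold changes of 0.09 (C1ra), -0.19 (C1s1) and -0.26 (C1s2), and the diets did not overlap for C1s1 and C1s2, for C1s1 by less than 0.01. Hc, the mouse gene for C5, had -0.13, and C7 had -0.15.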

How the data were processed

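Livers of 4 HFD+WBM and 4 HFD OVX mice gave 1 array each, and diets and replicate numbers came from the sample labels. The authors summarized each probe set with IterPlier (Affymetrix Power Tools 1.8.6), after background correction and normalization. The deposited values were taken as log2 from their range, since neither the log base nor an offset is given in the sources used here; they were not rescaled, and no count or depth lies behind them, so that the number of arrays limits the precision. Of 28944 probe sets, 21789 named 1 gene, 1621 several and 5534 none; only the first were used, by their highest mean, giving 19938 genes. The platform annotation names no genome build, so coordinates are given for RefSeq promoter windows alone.

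The diets were compared with limma 3.58.1 (lmFit and eBayes, R 4.3.3) over all 19938 genes with diet as the only term, two-sided. A gene was called at p under 0.05 before adjustment, and Benjamini-Hochberg values were taken over all genes. The exact permutation test used all splits of the 8 mice. Since each array is a liver specimen of its own in the labels, the spread between arrays was read as that between mice. Same-numbered mice did not deviate together (correlations between -0.117 and -0.017), so replicate numbers were not used as pairs in the main fit. Mice of different numbers had correlations between -0.204 and 0.194, so so few values cannot exclude a pairing. The paper matched food intake between the diets by pair feeding, and the labels name no pairs. Values in every mouse were given for the C1q genes, for genes that were called or did not overlap, and for the nearest or most scattered of the others. The last of these were chosen after their values were seen. Gene lists and members were chosen with earlier results of these data known. The script was tested on simulated data. Alternatives were median centring, quantile normalization, offsets of 16 and 64 before the log, the brightest 50% of genes and the mean of probe sets. Others were a prior variance that follows the signal, array weights, an equal-variance t-test, the replicate block and leaving out each mouse.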

Additional observations from a re-analysis of the deposited data

Results flagged for a closer look

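Groups of 4 mice were searched for 1 mouse with a gap to the others above Dixon's critical value for 4 values (gap over range). The groups were, in each diet, the 39 genes, the 6 other cascade genes that fell, and the means of the C1q and hepatocyte-made genes. Of these 94 groups, 8 had such a mouse, and chance alone marks about 1 group in 20. In HFD+WBM replicate 4, Fgb was 13.50 (others 13.23 to 13.26), Plg 13.49 (others 13.21 to 13.25) and Vtn 13.46 (others 13.22 to 13.26), and the mean of the hepatocyte-made genes was 11.44 (others 11.28 to 11.30). In HFD+WBM replicate 1, F8 was 8.90 (others 9.52 to 9.63) and F9 was 10.97 (others 11.27 to 11.32). Among the HFD mice, C1qa was 9.49 in replicate 2 (others 10.07 to 10.15) and Fgb was 13.59 in replicate 3 (others 13.21 to 13.25). All are log2 values.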

How the results depend on the processing

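Under 18 alternatives, 8 of which left out 1 mouse, 6 of the 9 genes that fell were called in each (C1qa, C1qb, C1qc, C3ar1, C8b and C9), and none of the 9 changed sign. C6, Cfp and C4bp were lost with the replicate block, which called 6 of the 39 genes lower; C4bp was also lost with median centring, quantile normalization and array weights. The number of genes lower was 6 to 11 when 1 mouse was left out and 6 to 13 over all alternatives, with none higher in any. The shares of all genes called under each alternative are not given here, so these counts are not set against a background. Of the 30 genes not called, 9 were called in some alternative, 4 of them when a mouse was left out. With 1 mouse left out, the median log2 fold change was between -0.83 and -0.61 for the C1q genes and between -0.16 and -0.08 for the hepatocyte-made genes. The number of genes past both cutoffs was 0 to 1 when 1 mouse was left out, the 1 being C3ar1 without HFD replicate 2. Of the other cascade genes, 3 to 8 were lower when 1 mouse was left out, 10 by the equal-variance t-test and 3 with the replicate block. The cause was not tested. No gene of the array had an adjusted p under 0.05 in the main limma fit or by the t-test. When limma's prior variance was let vary with brightness, 139 did, among them C1qc (0.0067), C8b (0.013), C9 (0.024), C1qa (0.031) and C1qb (0.032). Adjusted p was also under 0.05 for C1qc and C8b by limma after an offset of 64 was added before the log. Counts over the whole array are not given here for the other alternatives. With an offset of 64, the log2 fold changes of dim genes were smaller: F3 had -0.44 (-0.96 without it), Plau -0.43 (-0.89), C5ar1 -0.29 (-0.58) and C3ar1 -0.61 (-0.85).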
